A study of Mus musculus with 16 samples.

Results

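The 10 genes described here encode proteins that the proximal male excurrent ducts place on sperm or secrete around them: Adam7, Adam28, Crisp4, Cd52, Pate5, Lypd8, Teddm2, Cuzd1, Ces5a and Clu. They were found by symbol among probe sets annotated to exactly 1 gene symbol, which gave 10 of the 18194 genes measured in this way and 16 of 34958 such probe sets. Of these genes, Clu had 4 probe sets, Ces5a 3, Adam28 2 and the other 7 genes 1 each. The brightest probe set of a gene over all arrays stood for the gene, all 10 genes were tested in every comparison, and the remaining probe sets of Adam28, Ces5a and Clu are described after the comparisons.

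RNA of the caput epididymis, the head of the epididymis, and of the efferent duct, which joins it to the testis, had been hybridized to 16 single-channel Affymetrix mouse arrays, 2 for each of 8 groups. All animals were adult male 129BL/6 mice, and the labels name no transgene or mutation. In each tissue there were castrated mice given 0.015 mg testosterone propionate (an ester of testosterone), castrated mice given 0.015 mg estradiol, castrated mice given vehicle, and sham-castrated mice given vehicle. The vehicle was 100 µL of 10% ethanol in sesame oil, every injection followed surgery by 14 days, and tissue was taken 12 hours after it. Castration takes away the testis itself, so circulating androgen and the fluid and sperm that enter the duct are lost together. The labels do not say that the 2 arrays of a group came from separate animals, so p-values measure only the spread between these arrays, which may be technical. With 2 arrays in each group, groups often do not overlap even without a difference, so a lack of overlap is no test.

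Sperm leave the testis unable to swim or to fertilize and acquire both abilities in the epididymis. There the epithelium secretes proteins into the lumen and hands membrane proteins to sperm, many of them held by a glycosylphosphatidylinositol (GPI) lipid anchor and carried on vesicles. Transcription in the caput is known to depend on androgen from the blood and on further factors that reach it with the testicular fluid.

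Values are linear array intensities. The background of an array was the highest of 27 bacterial control probe sets. It was 7.82 to 12.3 in the caput, 2.33 to 3.97 on the hormone arrays of the efferent duct and 8.09 to 14.3 on its vehicle arrays. The ratio of 3' to 5' actin signal, a sign of RNA integrity and labelling, separated the same efferent duct arrays (log2 ratio of 0.91 to 1.93 with hormone, 3.11 to 3.87 with vehicle), so hormone and array quality cannot be told apart in that tissue where a hormone is set against vehicle. In the caput the actin ratio overlapped (0.88 to 1.20 and 0.64 to 1.02), while that of Gapdh did not (-0.37 to -0.14 with hormone, -0.51 to -0.39 with vehicle). RNA was labelled with a different kit and amount in each tissue, 10 µg for the caput and 50 ng for the efferent duct. The 5 measured caput markers Lcn5, Lcn8, Gpx5, Rnase10 and Defb41 were above background on every caput array, as were at least 5 of 6 efferent duct markers on the arrays of that tissue. The markers did not separate the tissues by presence alone, since 4 or 5 of the 6 efferent duct markers were also above background on each caput array (summed level 1209.6 to 1810.2 there, against 2539.7 to 6171 in the efferent duct), where only Cubn was below background in every group, and 2 to 5 of the 5 caput markers on each efferent duct array.

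Castrated and sham-castrated mice were compared to ask which transcripts depend on the testis. In the caput 9 of the 10 genes fell and Clu did not pass the test (limma, adjusted p under 0.05). Over all 18194 genes 6.16% fell, 7.88% rose and 14.0% changed in either direction. The median log2 difference of the 10 genes, castrated minus sham, was -5.71, beside 0.06 for all genes. The 10 genes were chosen with earlier results of these data known, so the contrast with all genes is no independent test of them. In whole tissue, fewer cells of a type and less RNA per cell cannot be told apart.

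Adam7 encodes a membrane protein of the ADAM family whose protease domain lacks catalytic activity and which is transferred to sperm. Its intensity was 219 and 291 on the castrated caput arrays, against 8643 and 8372 on the sham arrays. The groups lay far apart, and the difference was 33.7-fold (log2 -5.08, 95% interval -5.57 to -4.58; limma adjusted p = 0.00144). Adam28, its neighbour on chromosome 14, encodes a catalytically active relative that lymphocytes also make. It read 40.2 and 45.6 on the castrated arrays, against 3431 and 3557 on the sham arrays. That was a fall of 81.6-fold to a level a few times above background (log2 -6.35, 95% interval -7.06 to -5.64; adjusted p = 0.00203, limma). Crisp4, a cysteine-rich secretory protein that binds sperm and takes part in the acrosome reaction in mice, read 22.3 and 26.1 in castrated mice, against 2007 and 2415 in sham mice. It fell 91.3-fold (log2 -6.51, 95% interval -7.38 to -5.64; limma adjusted p = 0.00287).

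Among the genes of small, lipid-anchored or Ly6-fold proteins, Cd52 encodes a very short GPI-anchored glycopeptide of leukocytes that epididymal cells also insert into the sperm membrane. It read 179.5 and 212 on the castrated arrays, against 2274 and 2519 on the sham arrays. Cd52 fell 12.3-fold (log2 -3.62, 95% interval -3.99 to -3.24; limma adjusted p = 0.00187) and stayed well above background in castrated mice. Pate5 belongs to a cluster of genes for small secreted proteins of the three-finger Ly6 fold. Its 26.6 and 37.3 in castrated mice stood against 5495 and 5055 in sham mice, a fall of 168-fold (log2 -7.39, 95% interval -8.09 to -6.68; limma adjusted p = 0.00134). Lypd8 encodes a GPI-anchored protein with Ly6 domains that is known in the mouse colon for binding flagellated bacteria. It read 36.4 and 33.8 in castrated mice, against 7389 and 7833 in sham mice, and fell 217-fold (log2 -7.76, 95% interval -8.24 to -7.29; limma adjusted p = 0.000477). The castrated and sham values of these 3 genes did not come near each other.

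Teddm2 is a member of the transmembrane epididymal protein family. It read 3.86 and 15.4 on the castrated arrays, the first of them below background, against 5803 and 5647.5 on the sham arrays. Teddm2 fell (log2 -9.53, 95% interval -11.46 to -7.60; limma adjusted p = 0.00502), but with a castrated level at the background the size of the fall was not measurable, and the log2 difference ran from -10.53 to -8.53 when 1 array was left out.

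The other secreted proteins moved far less. Cuzd1, a protein with CUB and zona pellucida-like domains that estrogen induces in the rat uterus, read 4146 and 3559.9 in castrated mice, against 7636 and 7975 in sham mice. It fell 2.03-fold (log2 -1.02, 95% interval -1.40 to -0.65; limma adjusted p = 0.0172). Ces5a, a secreted carboxylesterase, read 2405 and 2370.2 in castrated mice, against 4433 and 4945 in sham mice, and fell 1.96-fold (log2 -0.97, 95% interval -1.34 to -0.61; limma adjusted p = 0.0180). Both genes therefore kept about the same share of their sham level, a mean of 49.4% for Cuzd1 and 50.9% for Ces5a. Clu encodes clusterin, an extracellular chaperone of the duct fluid and a classic transcript of the regressing rat prostate. It read 8979 and 9509 in castrated mice, against 10137.5 and 10174 in sham mice. The log2 difference of Clu was -0.14 (95% interval -0.66 to 0.39; limma adjusted p = 0.703), and Clu ranked between the first and the fourth brightest gene on every caput array, where signals crowd toward the top of the scale. Adam7 (ranks 18 to 19 in sham mice, 33 to 37 with testosterone) and Cuzd1 (25 to 28 and 16 to 18) were also among the brightest genes, so the same limit may hold for their levels.

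**Figure D1:**
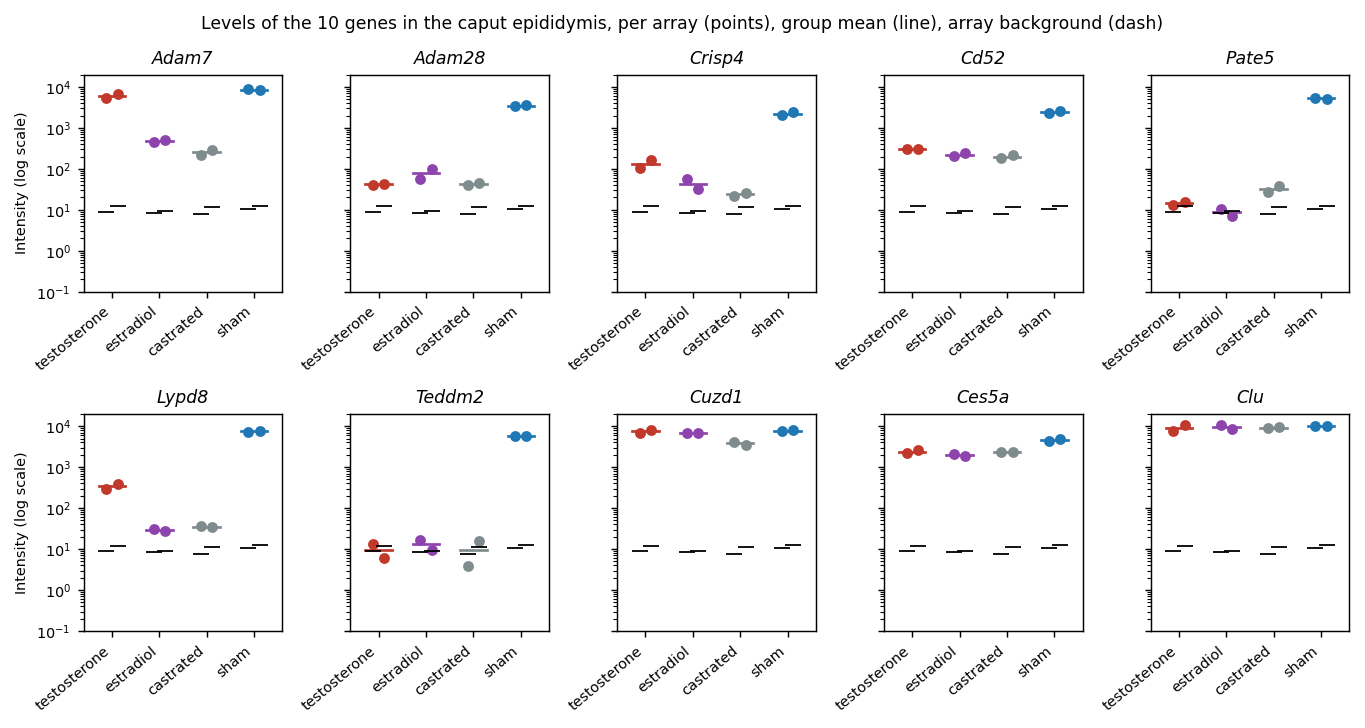
Intensity (log scale) of each of the 10 genes on the 8 caput arrays, by group; points are arrays, coloured lines group means and black dashes each array's background. Adam28, Crisp4, Cd52, Pate5, Lypd8 and Teddm2 are low in all 3 castrated groups and high in sham mice, Adam7 with testosterone reaches 5299.9 and 6705 beside 8643 and 8372 in sham mice, and Clu lies between 7622 and 10762 on all 8 arrays.

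Without any 1 of the 4 castrated and sham caput arrays, 7 of the 10 genes passed and Cuzd1 (adjusted p = 0.0606 to 0.0864) and Ces5a (0.0743 to 0.0893) did not, by the same limma test. With a spread estimated from those 4 arrays alone, no gene of the array passed, and the 9 genes had limma adjusted p values of 0.0510 to 0.0713.

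The caput markers themselves fell with castration. Their summed level was 5696 to 5923 on the castrated caput arrays, against 44806 to 44929 on the sham arrays, and 4 of the 5 were called lower. The 9 genes and the markers of their tissue were thus lower on the same arrays. Sperm and germ cell transcripts were also lower in castrated mice. The summed level of 15 markers of these cells was 414 to 490 on the castrated caput arrays, against 2771 to 9616 on the sham arrays, and 7 of them fell and 1 rose. In castrated mice 8 of the 15 were below background on both arrays, among them Prm3, Tnp2, Odf1 and Akap4. Summed leukocyte markers, 18 of them, were 1780 to 1985 in castrated mice, against 1526 to 1545 in sham mice. Of these 4 rose, and the others did not pass the test. Leukocytes also express Cd52 and Adam28, and the part of leukocytes in the levels of these genes was not tested. The 7 general epithelial markers summed to 9974 to 10802.5 in castrated mice and 10486.5 to 11011 in sham mice. Of these Krt19 fell (log2 difference -0.85, limma adjusted p = 0.0154), and the others did not pass the test. The part of sperm RNA in the falls of the 9 genes was not tested.

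Castrated mice with testosterone propionate were set against those with vehicle, which asks what has changed 12 hours after the hormone. In the caput 3 of the 10 genes rose, Adam7, Lypd8 and Crisp4, and none fell. Over all genes 1.01% rose and 1.65% changed in either direction. The median log2 difference of the 10 genes, testosterone minus castrated, was 0.41, beside -0.05 for all genes.

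Adam7 stood at 5299.9 and 6705 in the caput of testosterone-treated mice, against 219 and 291 in castrated mice. It rose 23.6-fold (log2 4.56, 95% interval 4.06 to 5.06; limma adjusted p = 0.00502). Its mean with testosterone was 70.6% of that in sham mice, and the log2 difference from sham, -0.51 (95% interval -1.01 to -0.01), did not pass limma's test (adjusted p = 0.159), although with an intensity trend in the variance Adam7 passed as lower than sham (0.0363). Lypd8 read 287 and 393 with testosterone, against 36.4 and 33.8 in castrated mice. Lypd8 rose 9.57-fold (log2 3.26, 95% interval 2.78 to 3.73; limma adjusted p = 0.0133), and its mean was then 4.47% of that in sham mice. Crisp4 read 105 and 161 with testosterone, against 22.3 and 26.1 in castrated mice. Crisp4 rose 5.38-fold (log2 2.43, 95% interval 1.56 to 3.30; limma adjusted p = 0.0477), to 6.01% of its sham mean. In none of these 3 genes did the testosterone and castrated arrays overlap.

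Of the other genes, Cuzd1 came closest to the threshold, with 6775 and 8152 in testosterone-treated mice, against 4146 and 3559.9 in castrated mice. The log2 difference was 0.95 (95% interval 0.58 to 1.33; limma adjusted p = 0.0533), and the groups did not overlap. Cd52 read 298 and 297 with testosterone, against 179.5 and 212 in castrated mice (log2 difference 0.61, 95% interval 0.23 to 0.99; limma adjusted p = 0.122). Pate5 lay on the other side, at 13.4 and 15.8 with testosterone, near background, against 26.6 and 37.3 in castrated mice (log2 difference -1.11, 95% interval -1.82 to -0.41; limma adjusted p = 0.126). Adam28 overlapped between the groups, with 41.5 and 43.1 in testosterone-treated mice, against 40.2 and 45.6 in castrated mice (log2 difference -0.02, 95% interval -0.73 to 0.70). Ces5a (log2 difference -0.03, 95% interval -0.39 to 0.34) and Clu (-0.04, -0.56 to 0.49) overlapped between the groups. Teddm2 remained at background, at 13.4 and 5.94 with testosterone, against 3.86 and 15.4 in castrated mice.

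Crisp4 did not pass without any 1 of the 4 arrays (limma adjusted p = 0.126 to 0.188), nor with all probe sets averaged (0.0609) or fitted (0.0598), Lypd8 did not without castrated replicate 1 (0.0752), castrated replicate 2 (0.0810) or testosterone replicate 2 (0.0518), and Adam7 did not without testosterone replicate 2 (0.0518). With dim genes left out or with an intensity trend in the variance, Cuzd1 (limma adjusted p = 0.00615 and 0.00197) and Cd52 (0.0290 and 0.0125) passed as higher and Pate5 (0.0260 and 0.0291) as lower, and with the 4 arrays alone no gene passed. Leaving out dim genes and the intensity trend each let more of all genes pass too, by the counts given at the end. Cuzd1 also passed with values under 16 set to 16 (limma adjusted p = 0.0291).

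Estradiol was compared with vehicle in castrated mice at the same time point. None of the 10 genes passed in the caput, where 0% of all genes passed and 2644 of 18194 had an unadjusted p under 0.05. The nearest to the threshold was Pate5, at 10.7 and 6.92 with estradiol, the second below background, against 26.6 and 37.3 in castrated mice (log2 difference -1.87, 95% interval -2.57 to -1.16; limma adjusted p = 0.0994). Cuzd1 read 6983 and 6737 with estradiol, against 4146 and 3559.9 in castrated mice (log2 difference 0.84, 95% interval 0.46 to 1.21; limma adjusted p = 0.128). Adam7 read 449.7 and 492 with estradiol, against 219 and 291 in castrated mice (log2 difference 0.90, 95% interval 0.40 to 1.40; limma adjusted p = 0.174). Pate5, Cuzd1 and Adam7 passed when dim genes were left out (limma adjusted p = 0.0101, 0.0209 and 0.0352). The share of all genes above belongs to the fit with dim genes kept, and that with them left out is not given here. Lypd8, at 31.6 and 27.3 with estradiol, against 36.4 and 33.8 in castrated mice, had a log2 difference of -0.26 (95% interval -0.73 to 0.22). For Adam28 it was 0.82 (95% interval 0.11 to 1.54), with 56.7 and 101.0 with estradiol, against 40.2 and 45.6 in castrated mice.

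Testosterone propionate and estradiol were given at the same mass, 0.015 mg, and were set against each other. The labels do not say whether this mass was an equally effective dose of each. Adam7 and Lypd8 were higher with testosterone, 2 of the 10 genes, where 1.13% of all genes were higher and 2.13% differed in either direction. Adam7, at 5299.9 and 6705 with testosterone, against 449.7 and 492 with estradiol, differed 12.7-fold (log2 3.66, 95% interval 3.16 to 4.16; limma adjusted p = 0.0105). Lypd8, at 287 and 393 with testosterone, against 31.6 and 27.3 with estradiol, differed 11.4-fold (log2 3.52, 95% interval 3.04 to 3.99; limma adjusted p = 0.0105). Crisp4, at 105 and 161 with testosterone, against 55.6 and 32.0 with estradiol, did not pass (log2 difference 1.62, 95% interval 0.75 to 2.49; limma adjusted p = 0.0968). Cuzd1 gave a log2 difference of 0.12 (95% interval -0.26 to 0.49), and the 2 hormone groups overlapped. Adam7 did not pass without any 1 of the 4 hormone arrays (limma adjusted p = 0.0589 to 0.0725), nor Lypd8 without testosterone replicate 1 (0.0514), estradiol replicate 1 (0.0589) or estradiol replicate 2 (0.0725). With the 4 arrays alone the limma adjusted p of both genes was 0.132, and Crisp4 passed with dim genes left out (0.0152).

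Set against sham mice, 7 of the 10 genes were lower in testosterone-treated castrated mice, where 4.67% of all genes were lower and 9.44% differed in either direction. Adam7, Cuzd1 and Clu did not pass, and Cuzd1 overlapped with sham at a mean of 95.6% of the sham level. Pate5 differed 362-fold (limma adjusted p = 0.00235), a size that is uncertain because Pate5 was near background with testosterone. Adam28 differed 82.6-fold (limma adjusted p = 0.00309), Lypd8 22.7-fold (0.00277), Crisp4 17.0-fold (0.00980), Cd52 8.04-fold (0.00387) and Ces5a 2.00-fold (0.0249). Teddm2, below background on 1 testosterone array, had a log2 difference of -9.32 (limma adjusted p = 0.00945), which ran from -9.91 to -8.74 without 1 array, and no fold could be measured. With estradiol 8 genes were lower than in sham mice, where 7.30% of all genes were lower and 17.3% differed in either direction. Adam7 differed 18.1-fold from sham there (limma adjusted p = 0.00264), while Cuzd1, at a mean of 87.9% of the sham level, and Clu did not pass. Both of these comparisons share the sham arrays with the comparison of castrated and sham mice. Without 1 array, Ces5a lost its call against sham in all 4 cases with testosterone (limma adjusted p = 0.0774 to 0.104) and without sham replicate 2 with estradiol (0.0513). With testosterone, Crisp4 lost it without testosterone replicate 1 (0.0558), sham replicate 1 (0.0643) or sham replicate 2 (0.0631), and Teddm2 without testosterone replicate 2 (0.0546), sham replicate 1 (0.0661) or sham replicate 2 (0.0608).

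**Figure D2:**
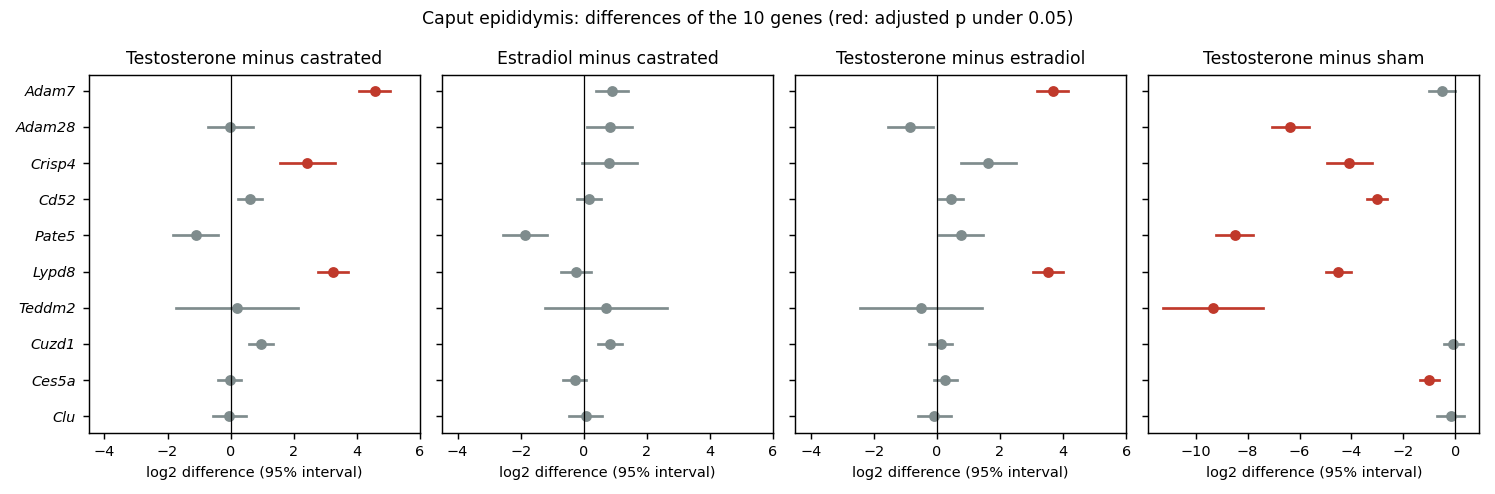
Log2 differences with 95% intervals for each of the 10 genes in the caput, in 4 comparisons with the group named first on top of the difference; red marks an adjusted p under 0.05. Adam7, Lypd8 and Crisp4 lie to the right of 0 against castrated mice with testosterone, and Adam7 and Cuzd1 lie near 0 against sham mice while Pate5 and Teddm2 lie beyond -8.

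By group mean, the caput levels of Adam7 ran from castrated through estradiol and testosterone to sham. Neither estradiol and castrated nor testosterone and sham were separated by the test with dim genes kept and no intensity trend. The separations below are also of that fit. In Lypd8, Crisp4 and Cd52 sham was highest and testosterone next, estradiol and castrated mice were not separated, and in Crisp4 and Cd52 neither were testosterone and estradiol. In Adam28, Pate5 and Teddm2 the 3 castrated groups all lay at 2.26% or less of the sham mean and were not separated from one another. In Cuzd1 the castrated vehicle group was lowest, with neither hormone separated from it by the test. In Ces5a the sham group was highest and the other 3 groups were not separated.

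The stretches of DNA just upstream of the start site are shown for Lypd8 and Crisp4, which rose with testosterone, and for Teddm2 and Pate5, which did not pass that test. They are the 250 bases before the start in RefSeq's annotation of GRCm38.p6, written 5' to 3' on the gene's own strand, and such windows were at hand for 6 of the 10 genes. Capitals mark the letters AGAACA, the short form of the sequence bound by the androgen receptor, or their reverse complement TGTTCT. The Lypd8 window is chr11:58378782-58379031 on the plus strand, and those of Crisp4, Teddm2 and Pate5 are chr1:18145903-18146152, chr1:153851196-153851445 and chr9:35844151-35844400 on the minus strand.
Lypd8: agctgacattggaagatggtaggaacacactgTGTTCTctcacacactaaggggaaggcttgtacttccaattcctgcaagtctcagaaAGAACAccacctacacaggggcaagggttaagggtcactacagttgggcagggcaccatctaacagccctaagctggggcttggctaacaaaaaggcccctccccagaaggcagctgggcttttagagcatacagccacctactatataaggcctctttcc
Crisp4: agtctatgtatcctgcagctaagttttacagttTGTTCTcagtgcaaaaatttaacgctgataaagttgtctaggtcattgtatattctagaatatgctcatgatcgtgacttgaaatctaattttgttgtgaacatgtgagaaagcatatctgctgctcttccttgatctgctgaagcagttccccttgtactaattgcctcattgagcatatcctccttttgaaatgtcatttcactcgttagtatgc
Teddm2: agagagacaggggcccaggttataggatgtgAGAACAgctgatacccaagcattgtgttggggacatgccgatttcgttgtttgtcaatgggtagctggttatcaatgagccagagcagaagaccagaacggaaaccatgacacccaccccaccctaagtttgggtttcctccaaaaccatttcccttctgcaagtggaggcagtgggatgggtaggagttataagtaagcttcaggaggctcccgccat
Pate5: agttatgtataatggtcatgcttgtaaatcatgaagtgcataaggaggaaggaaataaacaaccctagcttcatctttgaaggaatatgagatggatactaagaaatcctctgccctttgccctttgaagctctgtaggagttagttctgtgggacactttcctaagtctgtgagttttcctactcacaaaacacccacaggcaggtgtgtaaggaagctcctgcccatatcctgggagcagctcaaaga

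Lypd8 held these letters at 2 places, 161 to 156 bases and 218 to 213 bases upstream, Crisp4 at 1 place, 217 to 212 bases upstream, and Teddm2 at 1, 219 to 214 bases upstream. Pate5 had none. Among the windows not shown, Ces5a had 1 match, 59 to 54 bases upstream, and Cuzd1 and a second start of Lypd8 had none. Of 32851 windows of the same length 16.1% held the short form on either strand, so a match is common. The full palindromic androgen response element, these letters and their reverse complement 3 bases apart, was in 3 windows of the genome's set and in none of these genes, and neither CCGGAAG (6.91% of windows) nor CAGGAAG (10.8%), letters bound by ETS factors, was in any of the 7 windows of the 6 genes. The letters were present in Lypd8 and Crisp4, which rose with testosterone, and also in Teddm2, which was at background.

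In the genome of that build Adam7 (chr14:68497336-68533689) and Adam28 (chr14:68604998-68655889) lie 71309 bases apart with Adamdec1 between them. Adam7 rose with testosterone and Adam28 did not pass. Pate5 (chr9:35838329-35844150) lies among other Pate genes, next to Pate6, and Crisp4 (chr1:18114889-18145902) lies next to the beta-defensin genes Defb18 and Defb41. Teddm2 (chr1:153849542-153851195) neighbours Teddm1b and Teddm1a, which had no probe set of their own symbol here.

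In the efferent duct, 2 of the 10 genes fell after castration, Cd52 and Cuzd1, where 0.176% of all genes fell and 0.291% changed in either direction. The median log2 difference of the 10 genes was -5.19, castrated minus sham, beside 0.02 for all genes. Adam7, Crisp4, Pate5 and Lypd8 were below background on both castrated arrays, so this median does not give a measured size. Cd52 read 105 and 109 on the castrated arrays, against 4987 and 4534 on the sham arrays. It fell 44.3-fold (log2 -5.47, 95% interval -6.03 to -4.91; limma adjusted p = 0.0130). Cuzd1 read 625 and 805 in castrated mice, against 5416 and 4999 in sham mice, and fell 7.33-fold (log2 -2.87, 95% interval -3.47 to -2.28; limma adjusted p = 0.0305). Both pairs of arrays lay close together and far from the other group. The 15 sperm and germ cell markers summed to 1128 to 1472 in castrated mice, against 2017 to 2088 in sham mice, with 3 or 4 of them above background in castrated mice, against 12 or 13 in sham mice, and a median log2 difference of -2.48. None of the 15 passed the test, and the part of sperm RNA in the efferent duct levels was not tested.

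Ces5a, Adam7, Lypd8 and Crisp4 did not pass, and the ratio between their castrated arrays was larger than for Cd52 and Cuzd1. Ces5a read 170.3 and 52.1 in castrated mice, against 3964 and 3204 in sham mice (log2 difference -5.24, 95% interval -7.43 to -3.05; limma adjusted p = 0.0926). Adam7 was below background in castrated mice, at 13.2 and 4.96, against 1381 and 1484 in sham mice, a difference of at least 124-fold (limma adjusted p = 0.102). Lypd8, below background in castrated mice at 7.07 and 1.63, read 164 and 396 in sham mice, at least 22.1-fold more (limma adjusted p = 0.179). Crisp4, below background in castrated mice at 6.33 and 1.85, read 144 and 207 in sham mice, at least 15.0-fold more (limma adjusted p = 0.275), and passed with values under 16 set to 16 (0.0123). In these 4 genes no castrated array reached the level of a sham array, which with 2 arrays in each group is no test.

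Pate5 and Teddm2 were seen mainly on 1 sham array. Pate5 read 7.90 and 0.178 in castrated mice, against 6.97 and 249 in sham mice, so the groups overlapped. Teddm2 read 3.58 and 14.3 in castrated mice, against 20.5 and 119.6 in sham mice. Adam28 was dim in the efferent duct, at 24.4 and 8.75 in castrated mice, against 12.0 and 36.5 in sham mice, with 1 array of each group below background. Clu differed between the 2 castrated arrays, 5974 and 2169, against 3183 and 3784 in sham mice.

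**Figure D3:**
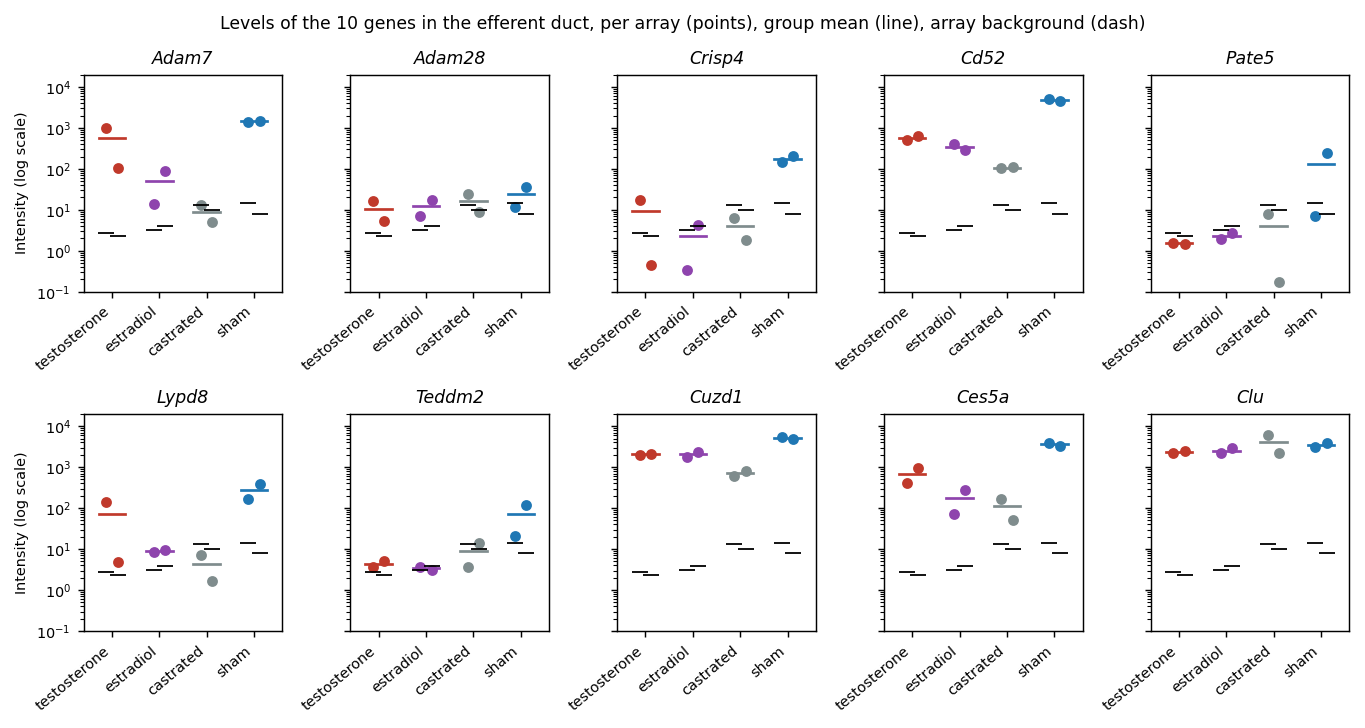
Intensity (log scale) of each of the 10 genes on the 8 efferent duct arrays, drawn as for the caput. Cd52 and Cuzd1 keep the arrays of each group together, Adam28 lies at 36.5 or less throughout, and Pate5, Teddm2, Lypd8 and Adam7 differ widely between the 2 arrays of a group.

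Cd52 did not pass without either sham array of the efferent duct (limma adjusted p = 0.0508 and 0.0509) and Cuzd1 not without any 1 of the 4 arrays (0.0504 to 0.0768). With an intensity trend in the variance 5 genes fell in castrated mice, Adam7 (limma adjusted p = 0.00336), Lypd8 (0.0254) and Ces5a (0.00228) besides, with dim genes left out Adam7 (0.0185) and Ces5a (0.0150) besides, and with the 4 arrays alone none did. The share of all genes that fell, given above, belongs to the fit without these changes. The shares under them are not given here.

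Testosterone and estradiol were not separated for any of the 10 genes in the efferent duct, where 0% of all genes passed limma's test and 1479 of 18194 had an unadjusted p under 0.05. Their arrays were closer in quality to each other than to the vehicle arrays but not alike. The actin log2 ratio was 0.91 and 1.93 on the testosterone arrays and 1.31 and 1.15 on the estradiol arrays. Adam7 read 1007 and 105 with testosterone, against 13.8 and 88.6 with estradiol (log2 difference 3.22, 95% interval -0.16 to 6.60; limma adjusted p = 0.635). Ces5a read 417 and 978 with testosterone, against 72.3 and 274 with estradiol (log2 difference 2.18, 95% interval -0.01 to 4.37; limma adjusted p = 0.620). Cd52 read 515 and 627 with testosterone, against 393 and 287 with estradiol (log2 difference 0.76, 95% interval 0.19 to 1.32; limma adjusted p = 0.459). The groups did not overlap in these 3 genes, nor in Pate5, which was below background in both groups. With 2 arrays in each group this is common without a difference. Cuzd1 overlapped, at 1999 and 2129 with testosterone, against 1723 and 2387 with estradiol (log2 difference 0.03, 95% interval -0.57 to 0.62).

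Against castrated vehicle mice, Cd52, Cuzd1 and Adam7 were higher with testosterone in the efferent duct, 3 of the 10 genes, but 23.3% of all genes were higher and 35.7% differed in either direction, across arrays of unlike quality. The median log2 difference of all genes was 0.22 there and -0.03 after quantile normalization. Cd52 read 515 and 627 with testosterone, against 105 and 109 in castrated mice, 5.29-fold more (log2 2.40, 95% interval 1.84 to 2.97; limma adjusted p = 0.00520). Cuzd1, at 1999 and 2129 with testosterone, against 625 and 805 in castrated mice, was 2.91-fold higher (log2 1.54, 95% interval 0.94 to 2.14; limma adjusted p = 0.00882). Adam7, at 1007 and 105 with testosterone, against 13.2 and 4.96 below background in castrated mice, was at least 28.2-fold higher (limma adjusted p = 0.0313). Adam7 did not pass after quantile normalization (limma adjusted p = 0.0559) or with values under 16 set to 16 (0.0757), nor without testosterone replicate 1 (0.114), castrated replicate 1 (0.0691) or castrated replicate 2 (0.117). Lypd8 passed without testosterone replicate 2 (0.0333) and Clu, on its brightest probe set, as lower without castrated replicate 2 (0.0350). The direction of Clu depended on the probe set, with log2 differences of -0.60 (the brightest), -0.43, 0.19 and 0.82, none of which passed with all arrays.

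With estradiol, Cd52 and Cuzd1 were higher than in castrated vehicle mice, 2 of the 10 genes, where 20.1% of all genes were higher and 30.9% differed in either direction. The median log2 difference of all genes was 0.25, and -0.04 after quantile normalization. Cd52 read 393 and 287 with estradiol, against 105 and 109 in castrated mice, 3.13-fold more (limma adjusted p = 0.00800). Cuzd1, at 1723 and 2387 with estradiol, against 625 and 805 in castrated mice, was 2.86-fold higher (limma adjusted p = 0.0103). Both remained past the threshold after quantile normalization. Cd52 did not pass without estradiol replicate 1 (0.0555), Cuzd1 not without estradiol replicate 1 or 2 (0.0537 and 0.0514), and the brightest Clu probe set passed as lower without castrated replicate 2 (0.0444). The 4 Clu probe sets again differed in direction (log2 differences of -0.53, -0.34, 0.23 and 0.85).

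The summed level of 18 leukocyte markers was 2462 to 4601 with testosterone and 2516 to 4042 with estradiol, against 1309 to 2182 in castrated mice, in the efferent duct, where Cd52 was higher with either hormone. In sham mice it was 1959 to 2539, while Cd52 read 4987 and 4534. The part of leukocytes in the level of Cd52 was not tested.

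Between tissues, 6 of the 10 genes were higher in the sham caput than in the sham efferent duct and Cd52 was lower, where 31.3% of all genes were higher, 23.8% lower and 55.2% different in either direction. Tissue and labelling kit changed together and cannot be told apart. The median log2 difference of all genes was 0.30, caput minus efferent duct, and 0.08 after quantile normalization. Adam28 was higher in the caput, at 3431 and 3557, against 12.0 and 36.5 in the efferent duct (log2 difference 7.39, limma adjusted p = 2.01e-05), and so was Pate5, at 5495 and 5055, against 6.97 and 249 (log2 difference 6.98, 95% interval 3.05 to 10.92; limma adjusted p = 0.00702). Both were below background on the first efferent duct array, so no fold is given, and without 1 array the log2 difference ran from 6.58 to 8.19 for Adam28 and from 4.40 to 9.56 for Pate5. Teddm2 was 116-fold higher in the caput (limma adjusted p = 0.000185), Lypd8 29.8-fold (0.00794) and Clu 2.93-fold (0.00771). Cuzd1 had a log2 difference of 0.58 (95% interval 0.15 to 1.02; limma adjusted p = 0.0267). Cd52 was the exception, at 2274 and 2519 in the caput, against 4987 and 4534 in the efferent duct, 1.99-fold lower in the caput (limma adjusted p = 0.00119). Adam7 (5.94-fold, limma adjusted p = 0.0602), Crisp4 (12.7-fold, 0.0734) and Ces5a (1.31-fold, 0.650) did not pass. That value of Ces5a is of its brightest probe set, and the other 2 passed as higher in the caput, at means of 4448 in the caput, against 229 in the efferent duct (log2 difference 4.28, limma adjusted p = 2.43e-05), and of 3046 in the caput, against 1022 in the efferent duct (1.59, 0.0480). With all its probe sets averaged Ces5a passed (log2 difference 2.09, limma adjusted p = 0.00832). The other Clu probe sets were also higher in the caput, by log2 differences of 1.92 to 3.03, beside 1.55 for the brightest. Cuzd1 lost its call after quantile normalization (limma adjusted p = 0.654) and without any 1 of the 4 sham arrays (0.0582 to 0.109), and Pate5 (0.0561) and Lypd8 (0.0524) without efferent duct sham replicate 1. With the 4 sham arrays alone Adam7 (limma adjusted p = 0.00663) and Crisp4 (0.00688) passed, and Pate5 (0.0694) and Cuzd1 (0.0532) did not. Crisp4 also passed with values under 16 set to 16 (7.26e-06).

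The effect of castration itself differed between the tissues for 5 of the 10 genes, by a test of the difference between the 2 log2 differences, caput minus efferent duct. Over all genes 3.24% passed, 1.96% in the positive and 1.29% in the negative direction. Adam28 (-5.83, 95% interval -8.16 to -3.51; limma adjusted p = 0.0233) and Teddm2 (-6.74, 95% interval -9.76 to -3.72; adjusted p = 0.0337) had the more negative difference in the caput, and both were dim in the efferent duct. Cd52 (1.85, 95% interval 1.27 to 2.44; limma adjusted p = 0.00952), Cuzd1 (1.85, 95% interval 1.24 to 2.46; adjusted p = 0.0113) and Ces5a (4.27, 95% interval 2.13 to 6.41; adjusted p = 0.0462) had the more negative difference in the efferent duct. Cuzd1 kept a mean of 49.4% of its sham level in the castrated caput, against 13.7% in the castrated efferent duct, and Ces5a kept 50.9% in the caput, against 3.10% in the efferent duct. The difference between the hormones, caput minus efferent duct, passed for none of the 10 genes (limma, 0.0495% of all genes, 1680 of 18194 at an unadjusted p under 0.05). Without 1 of the 8 castrated and sham arrays, Ces5a lost its call in 7 cases (limma adjusted p up to 0.127), Teddm2 in 6 (up to 0.104) and Adam28 in 5 (up to 0.0724), in each without any 1 caput array and without efferent duct sham replicate 1, while Cd52 and Cuzd1 passed in all 8. With only the arrays compared none of the 5 passed (limma adjusted p = 0.0609 to 0.156), and after quantile normalization Teddm2 (0.0587) and Ces5a (0.0639) did not. Adam28 did not pass with its probe sets averaged (limma adjusted p = 0.0543), nor Ces5a with every probe set fitted (0.0607). With values under 16 set to 16, Crisp4 (limma adjusted p = 0.00321) and Pate5 (0.0466) passed as more negative in the caput.

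**Figure D4:**
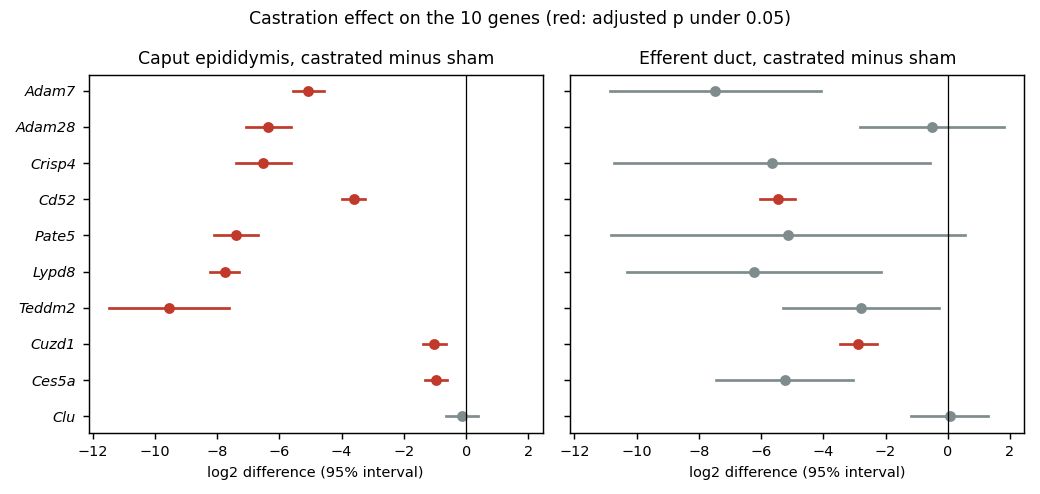
Log2 difference between castrated and sham mice with its 95% interval for each of the 10 genes, caput on the left and efferent duct on the right; red marks an adjusted p under 0.05. In the caput 9 genes lie below 0 with intervals that exclude it, while in the efferent duct the intervals of Adam7, Crisp4, Pate5 and Lypd8 are wide and Cd52 and Cuzd1 lie further below 0 than in the caput.

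Transcripts of the caput were present on some efferent duct arrays. The 5 caput markers summed to 1539 and 110.3 on the testosterone arrays and 108 and 702 on the estradiol arrays. They summed to 150.4 and 35.9 on the castrated arrays and 1472 and 5185 on the sham arrays. On the caput arrays the sums were 7174 to 11037 with testosterone and 4376 to 7000 with estradiol. They were 5696 to 5923 in the castrated caput and 44806 to 44929 in the sham caput. The second sham array, where Pate5 read 249 and Teddm2 119.6, had Lcn8 at 1126 and Rnase10 at 386, beside 15.5 and 7.52 on the first. The first testosterone array, where Adam7 read 1007 and Lypd8 139, had Gpx5 at 676, beside 18.4 on the second, while Lcn8 and Rnase10 were at 10.4 and 5.92. Adam28 was at 36.5 on that second sham array, against 3431 and 3557 in the sham caput. It was at 16.2 on that first testosterone array, against 41.5 and 43.1 in the testosterone-treated caput. The part of caput tissue in the efferent duct levels of Adam7, Crisp4, Lypd8, Pate5 and Teddm2 was not tested.

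**Figure D5:**
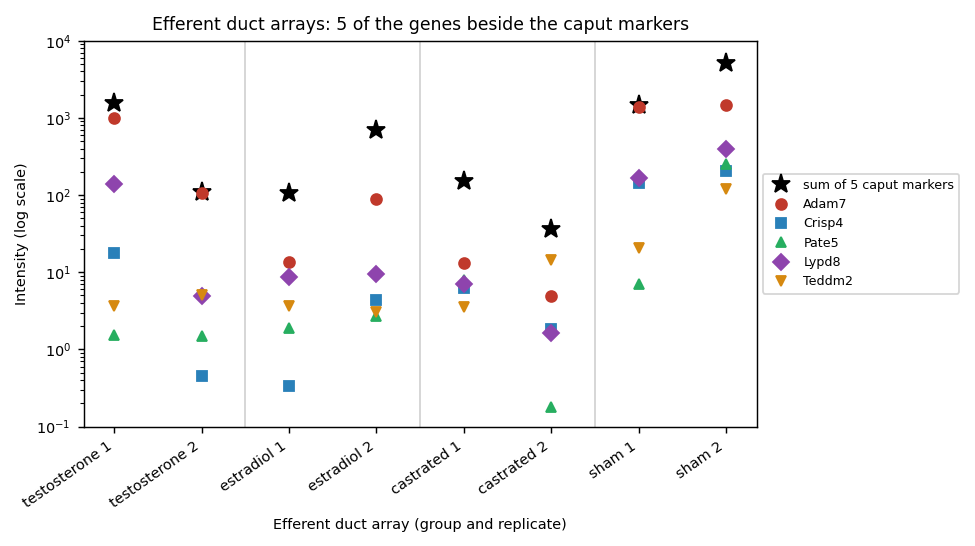
Intensity (log scale) of Adam7, Crisp4, Pate5, Lypd8 and Teddm2 on each of the 8 efferent duct arrays, with the sum of the 5 caput markers as black stars. The sum is highest on sham replicate 2, at 5185, where Pate5 and Teddm2 are also at their highest, and stands at 1539 on testosterone replicate 1, where Adam7 and Lypd8 exceed their values on replicate 2.

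The further probe sets of Adam28, Ces5a and Clu were fitted beside the brightest. For castrated against sham caput, the second Adam28 probe set had a log2 difference of -4.28 (limma adjusted p = 0.0158), and the other 2 of Ces5a had -1.04 and -1.29 (0.0443 and 0.0254). The other 3 of Clu lay between -0.18 and -0.09 and none passed. In the efferent duct the other Ces5a probe sets had log2 differences of -5.47 and -3.96 (limma adjusted p = 0.0795 and 0.0750), again short of the threshold. Both passed as higher with testosterone than in castrated mice there (limma adjusted p = 0.0216 and 0.0394), which the brightest did not (log2 difference 2.76, adjusted p = 0.0585). The brightest probe sets of Ces5a and Clu are of a design in which some probes may match other transcripts.

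Across the 8 caput arrays, which share 4 groups of 2, Pearson's r between log2 levels was 0.86 to 0.98 among Adam28, Crisp4, Cd52, Pate5, Lypd8, Teddm2 and Ces5a. Adam7 correlated most with Lypd8 (0.89) and Crisp4 (0.86) and least with Clu (0.14), and Cuzd1 most with Adam7 (0.77). Among 15918 genes above background on at least 2 caput arrays, the gene most like Adam7 was Wipf3 (r = 0.997), then Hk2 and Ssr1. Lypd8 was most like Cldn2 (0.998), Crisp4 like Ldlrad3 (0.996), Teddm2 like the lipocalin gene Lcn9 (0.996), Adam28 like Inpp5d (0.995), Cd52 like Rhbdd3 (0.997) and Pate5 like Ndufv3 (0.993). Ces5a was most like Npc2 (0.994), Cuzd1 like Mrfap1 (0.97) and Clu like Tpt1 (0.979).

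Genes of related function were counted from lists without the 10. The lists, like the 10 genes, were chosen with earlier results of these data known, so their counts are no independent test. Of 28 other measured genes for proteins of epididymal sperm maturation, 12 fell in the castrated caput and none rose, with a median log2 difference of -1.38, beside 0.06 for all genes. Over all genes 6.16% fell and 7.88% rose there. Lcn9 fell at least 974-fold (limma adjusted p = 0.00477) and Spink10, a Kazal-type protease inhibitor, 68.8-fold (0.000477). With testosterone 2 of them rose, Spink10 24.0-fold and the lipocalin gene Lcn12 8.36-fold (limma adjusted p = 0.00144 and 0.0149), and the receptor kinase gene Ros1 fell 2.38-fold (0.0435). Over all genes 1.01% rose with testosterone and 1.65% changed in either direction. The list's median log2 difference with testosterone was -0.10, beside -0.05 for all genes. In the castrated efferent duct 2 of the 28 fell, Spink10 at least 198-fold and Ptgds, a prostaglandin D synthase, 11.4-fold (limma adjusted p = 0.0305 and 0.0460). There 0.176% of all genes fell.

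Relatives by protein family were counted in the same way. In the castrated caput these counts stand beside 6.16% of all genes that fell and 7.88% that rose. Of 12 somatic ADAM genes, Adam10 fell 1.48-fold and Adam8 rose 2.00-fold in the castrated caput (limma adjusted p = 0.0439 and 0.0343). Of 15 germ cell ADAM genes 4 fell, among them Adam3 at least 4.76-fold, beside the lower sperm markers given above. Of 10 CRISP and related CAP domain genes, Crisp2, a protein of sperm, fell to a mean of 8.56, with 1 array below background, against 327 in sham mice (limma adjusted p = 0.0297), and Crispld1 and Crispld2 rose 1.62- and 1.71-fold (0.0211 and 0.0245). Of 31 Ly6 and PATE genes 6 fell and 1 rose, Ly6f to a mean of 10.2, with 1 array below background, against 66.5 in sham mice (limma adjusted p = 0.0286), while 2 of those that fell, Pate14 and Tex101, were below background in both groups. Of 12 carboxylesterase genes 3 rose and none fell, Ces1e at least 6.15-fold, Ces2a at least 4.31-fold and Ces1d 3.65-fold (limma adjusted p = 0.00741, 0.0184 and 0.0405), while Ces5a fell.

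GPI anchors are built and remodelled by their own enzymes, and of 26 such genes 1 fell and 1 rose in the castrated caput, no larger a share than the 14.0% of all genes that changed. Pgap2, which takes part in remodelling the anchor's lipid, fell 3.84-fold in castrated mice (limma adjusted p = 0.00448). With testosterone Pgap2 averaged 2464, against 456 in castrated mice, a rise of 5.41-fold (limma adjusted p = 0.0133), and it averaged 1749 in sham mice. It was also 2.33-fold higher with testosterone than with estradiol (limma adjusted p = 0.0313). Piga, needed for the first step of anchor synthesis, rose 1.54-fold in castrated mice (limma adjusted p = 0.0476). In none of the ADAM, CRISP, Ly6 and carboxylesterase lists did a gene pass with testosterone against castrated mice in the caput, where 1.65% of all genes did. Pancreatic acinar markers were examined because Cuzd1 is also made in that gland, and 1 or 2 of the 5 measured were above background on each caput array. Their summed level was 98.7 to 100.5 in castrated mice, against 220.3 to 233 in sham mice. Of the 5, Cela1, singled out after its values were seen, fell (log2 difference -1.40, limma adjusted p = 0.00946). The log2 differences of Cpa1 (0.82), Cpb1 (-1.15), Ctrb1 (-0.12) and Cel (0.06) did not pass. Cpa1, Cpb1 and Ctrb1 were below background on both arrays of every caput group, and the part of such cells in the level of Cuzd1 was not tested.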

How the data were processed

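The deposited intensity values are linear and were made by the authors with RMA, per the submitters' processing notes, which give no version. RMA usually returns log2 values, yet every array here has a trimmed mean of 125, so how the authors scaled the values is not given in the sources used here. From these intensities, log2 was taken with no pseudocount, filter or further normalization. Of 45101 probe sets, 34958 had exactly 1 gene symbol in GEO's platform annotation, 932 had several and 9211 had none, and only the first were used.

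limma 3.58.1 in R 4.3.3 fitted 1 model per tissue over 8 arrays in 4 groups, and 1 over all 16 arrays for comparisons between tissues, with Benjamini-Hochberg adjustment over all genes and a threshold of 0.05. Tables and figures used Python 3.11.15 with pandas 2.3.3 and matplotlib 3.10.9, and the fits were tested on simulated data. A group below background on both arrays gave only a bound, "at least" so many fold, set against the lowest measurable level. The genes named are the 10 members, the 4 strongest called genes of each list and the 3 genes most like each member. Members and lists were chosen with earlier results of these data known. Alternatives were leaving out dim genes, quantile normalization, averaging or fitting all probe sets, a floor of 16, an intensity trend in the variance, the replicate number as a block, only the arrays compared, and leaving out each array. The number of arrays limits the precision.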

Additional observations from a re-analysis of the deposited data

Results flagged for a closer look

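For 5 of the 10 genes the castration effect differed between the tissues by the test of the difference itself, caput minus efferent duct on the log2 scale. The difference was -5.83 for Adam28 and -6.74 for Teddm2, both dim in the efferent duct. It was 1.85 for Cd52, 1.85 for Cuzd1 and 4.27 for Ces5a. Tissue and labelling kit cannot be told apart here, and leaving out 1 array took the call from Adam28, Teddm2 and Ces5a but not from Cd52 or Cuzd1.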

How the results depend on the processing

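No called difference of the 10 genes changed direction under any alternative. With only the arrays compared in the fit, the number of the 10 genes past the threshold was 0 for castrated against sham (9 with all arrays), 0 for testosterone against castrated (3), 0 for testosterone against estradiol (2), 2 for testosterone against sham (7) and 1 for estradiol against sham (8) in the caput. It was 0 for castrated against sham (2) and 1 for estradiol against castrated (2) in the efferent duct, and 0 for the difference in castration effect (5). With dim genes left out it was 6 for testosterone and 3 for estradiol against castrated in the caput and 4 for castrated against sham in the efferent duct, where only 7 of the 10 genes were tested, and with an intensity trend 6, 3 and 5. Of these comparisons, the counts over all genes under both settings are given only for testosterone against castrated, below. After quantile normalization the difference in castration effect passed for 3. Within a tissue, arrays of the same replicate number did not deviate together (correlations of deviations -0.047 to 0.065). Whether caput and efferent duct arrays of the same number came from the same mice was not checked, and the fits over both tissues took all arrays as independent. A fit that took the replicate numbers as a block (replicate block) let 1 gene pass for testosterone against castrated, 1 for testosterone against estradiol and 1 for castrated against sham in the efferent duct. Without 1 array the counts were 7 to 7, 0 to 2, 0 to 0, 0 to 1, 4 to 5 and 7 to 8 in the caput for castrated against sham, testosterone and estradiol against castrated, testosterone against estradiol, and testosterone and estradiol against sham. In the efferent duct they were 0 to 1 for castrated against sham, 0 to 0 for testosterone against estradiol, and 2 to 4 and 0 to 3 for testosterone and estradiol against castrated. They were 4 to 6 between the sham tissues, 2 to 5 for the difference in castration effect and 0 to 0 for the difference between hormones. Over all genes, castrated against sham in the caput called 2554 genes, 4192 with dim genes left out, 4429 with an intensity trend, 1504 with probe sets averaged, 1593 with the block, 331 to 528 without 1 array and 0 with only the arrays compared. Testosterone against castrated called 301, and 1582, 1681, 118, 7, 6 to 11 and 0 under the same alternatives. The cause of these shifts was not tested.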
